A study of Mus musculus with 2 samples.

Results

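Transcripts of B cells and plasma cells were read in sorted intestinal T helper 17 (Th17) cells and group 3 innate lymphoid cells (ILC3s), neither of which belongs to the B lineage. The set is 9 genes taken by name from the deposited expression table of 17024 genes: *Igj*, *Mzb1*, *Cd79a*, *Cd79b*, *Ms4a1*, *Cd22*, *Pou2af1*, *Sdc1* and *Derl3*. Of these, 8 had a row. *Ms4a1*, which encodes the B cell surface protein CD20, had none and was not analysed here. The mice were C57BL/6, 6 to 8 weeks old, and the study set the mRNAs of Th17 cells from the lamina propria of the small intestine beside those of ILC3s. The Th17 library was made from GFP-positive T cells of IL17A_IRES_GFP knock-in mice, in which GFP reports transcription of *Il17a*. The ILC3 library was made from GFP-positive ILC3s of IL23R_GFP knock-in mice, in which GFP reports *Il23r*. Mouse line, reporter and cell type therefore differ together. No source used here gives the number of animals behind each library, the zygosity of the reporters or whether B cells were gated out.

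Each group held 1 library, so no difference below has a replicate check and no p-value was computed. The libraries held 22576436 reads (ILC3) and 17599180 reads (Th17) over all rows. Levels are the authors' normalized counts, in which a single read was worth 0.850 in ILC3 and 1.18 in Th17. Folds are ratios of normalized counts with an exact 95% interval, which covers counting error only and compares these libraries, not the cell types. Without molecular identifiers, copies made by PCR count as separate reads, so the true error is wider.

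B cells recognise antigen through membrane immunoglobulin, whose signal is passed on by the CD79A and CD79B chains and restrained by the lectin CD22. When a B cell becomes a plasma cell, it turns down much of the receptor programme and expands its endoplasmic reticulum to secrete antibody. In the intestinal lamina propria most plasma cells make dimeric immunoglobulin A, in which the J chain joins the monomers and binds the epithelial transporter encoded by *Pigr*. Genes in the set are not all restricted to these cells. Syndecan-1, encoded by *Sdc1*, marks plasma cells but is also made by epithelium and by some IL-17-producing innate-like T cells in mice. *Mzb1* is also transcribed in plasmacytoid dendritic cells.

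Sequences upstream of the start sites are shown for the members with the clearest difference between the libraries that have a RefSeq entry (*Igj*, listed there as *Jchain*, and *Cd79a*) and for the pair whose promoter held a searched motif (*Pou2af1* and *Cd22*). RefSeq promoters on build GRCm38.p6 were found for 6 of the 9 genes. Each sequence runs 5′ to 3′ on the strand of the gene and ends at the base before the start site, with motif matches in capitals.
Igj, chr5:88527898-88528147, minus strand: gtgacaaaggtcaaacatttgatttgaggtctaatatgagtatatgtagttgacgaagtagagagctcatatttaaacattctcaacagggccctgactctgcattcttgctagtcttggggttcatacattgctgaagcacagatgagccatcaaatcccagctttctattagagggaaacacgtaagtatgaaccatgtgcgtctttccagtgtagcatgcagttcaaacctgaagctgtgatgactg
Cd79a, chr7:24897247-24897496, plus strand: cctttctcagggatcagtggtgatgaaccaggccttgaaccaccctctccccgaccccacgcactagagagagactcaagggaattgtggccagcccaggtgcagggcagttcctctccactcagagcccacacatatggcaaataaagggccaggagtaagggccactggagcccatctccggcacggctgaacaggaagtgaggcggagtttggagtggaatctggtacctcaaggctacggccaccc
Pou2af1, chr9:51213440-51213689, plus strand: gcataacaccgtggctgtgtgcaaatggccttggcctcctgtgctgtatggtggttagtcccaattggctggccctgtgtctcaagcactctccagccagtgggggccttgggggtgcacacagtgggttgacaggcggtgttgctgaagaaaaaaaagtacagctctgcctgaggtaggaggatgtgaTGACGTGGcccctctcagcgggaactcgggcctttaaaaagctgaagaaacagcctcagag
Cd22, chr7:30879029-30879278, minus strand: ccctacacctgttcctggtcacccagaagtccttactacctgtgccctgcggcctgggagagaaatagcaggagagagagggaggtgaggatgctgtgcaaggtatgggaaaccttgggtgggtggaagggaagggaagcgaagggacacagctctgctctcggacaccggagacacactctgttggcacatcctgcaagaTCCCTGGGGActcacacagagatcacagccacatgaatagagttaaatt

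3 motifs of the B and plasma cell programme were searched on both strands, and none overlaps another in these windows. The octamer ATGCAAAT, bound by the POU factors with which the *Pou2af1* product works, was in 0 of the 6 promoters and in 1.6% of 32851 promoters of the same length. The sequence TCCC followed after any 2 bases by GGGA, bound by the B lineage factor EBF1, was in 1 of 6, that of *Cd22*, from base 49 to base 40 before the start site, and in 0.779% of all. The sequence TGACGTGG, bound by the plasma cell and stress factor XBP1, was in 1 of 6, that of *Pou2af1*, from base 61 to base 54 before the start site, and in 0.563% of all. A match is a description of letters, not a site of binding.

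The transcripts did not form one block. *Igj*, *Mzb1*, *Cd79a* and *Cd79b* were 5.83-fold to 20.0-fold higher in the ILC3 library, *Derl3*, *Pou2af1* and *Sdc1* were higher by less than 4-fold, and *Cd22* was higher in Th17. A difference was called large when log2(normalized count + 1) differed by 2 or more, which is 4-fold, and the higher library reached 100. By that rule 4 of the 8 genes were called on the side of ILC3, against 5.14% of all genes, and 0 on the side of Th17, against 3.92% of all genes. *Cd22* and *Derl3* stayed under 100 in both libraries and could not be called. Counting differences of any size, 7 of 8 were higher in ILC3, against 45.5% of all genes. The median log2(Th17/ILC3) of the 8 genes was -1.93, beside 0.13 for all genes. All 8 had a mean of at least 10 normalized counts. Genes at that mean split 6759 toward ILC3 and 6959 toward Th17, with a median of 0.02. In RNA of bulk populations, fewer cells of a type and less RNA per cell cannot be told apart.

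Markers of other cell types differed between the libraries as well. Over all genes, 5.14% had a large difference toward ILC3 and 3.92% toward Th17. Epithelium markers summed to 1248 normalized counts in ILC3 and 203 in Th17, with a large difference toward ILC3 in 5 of 9. Stroma markers summed to 7359 and 434 (6 of 7), and endothelium markers to 4549 and 1965 (3 of 5, with *Cdh5*, *Kdr*, *Tek* and *Emcn* at 0 in Th17). In the stroma sums *Pdgfrb* held 1359 in ILC3 and 400 in Th17. In the endothelium sums *Pecam1* held 3801 in ILC3 and all of the 1965 in Th17. Macrophage and dendritic cell markers summed to 2308 and 769 (3 of 10). *Lyz1*, on this list although it is a lysozyme of Paneth cells of the small intestine, held 1191 of these in ILC3 and 67.0 in Th17. Without *Lyz1* the sums were 1117 and 702 (2 of 9). Markers of plasmacytoid dendritic cells summed to 9097 in ILC3 and 13791 in Th17, a sum led by *Ccr9*, which gut T cells also express. Of these 7 markers, 3 had a large difference toward ILC3 and 1 toward Th17, and *Siglech* was at 30.6 and 7.06. T cell markers summed to 3759 in ILC3 and 65470.0 in Th17, with a large difference toward Th17 in all 7, *Cd3e* at 651 and 9897. Of the 7, 6 kept that call when values were centred on constitutive families (genes of the proteasome, complex I and mitochondrial ribosome), a scaling that shifts every log2 ratio by -0.44. The part of each in the values of the B and plasma cell transcripts was not tested.

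**Figure D1:**
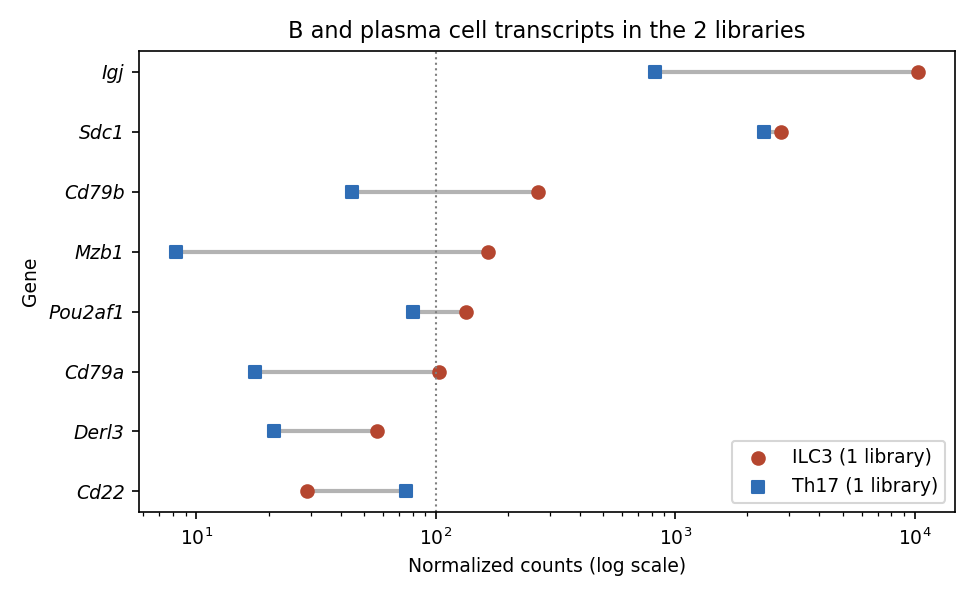
Normalized counts (log axis) of the 8 genes in the ILC3 library (circles) and the Th17 library (squares), 1 library each, with a dotted line at 100 normalized counts. *Igj* and *Sdc1* stand above the rest in both libraries, and *Cd22* is the gene whose square lies to the right of its circle.

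*Mzb1* and *Igj* held the largest ratios of the set. *Igj*, encoding the J chain, had 10299 normalized counts in the ILC3 library and 822 in the Th17 library, from 12111 and 699 reads. That is 12.5-fold higher in ILC3 (11.6 to 13.5). In the ILC3 library 98.4% of genes had a lower level than *Igj*, and in Th17 72.8% did. The adjusted p of *Igj* in the authors' deposited table was 0.0281, a value without replicates behind it. In that deposited table by the authors, 1.21% of all genes were under 0.05 on the side of ILC3, and the other 7 genes of the set had an adjusted p of 1.

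*Mzb1*, whose product helps immunoglobulin fold and assemble in the endoplasmic reticulum together with the chaperone GRP94, was at 165 in ILC3 and 8.23 in Th17. It was 20.0-fold higher in ILC3, with a wide interval (9.54 to 50.5) because the Th17 value rests on 7 reads. The intervals of *Mzb1* and *Igj* overlap. *Derl3*, encoding a derlin that helps draw misfolded proteins out of the endoplasmic reticulum for degradation, was at 57.0 in ILC3 and 21.2 in Th17, or 2.69-fold higher in ILC3 (1.58 to 4.81). So *Derl3* stayed under 100 in both libraries, and *Mzb1* passed 100 only in ILC3, above 48.7% of genes there. *Igj* was high in ILC3 and moderate in Th17. Within a library, *Igj* had 62.4 reads per read of *Mzb1* in ILC3 (54.2 to 72.3) and 99.9 in Th17 (48.2 to 249), intervals that overlap.

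The antigen receptor chains lay side by side. *Cd79a*, the Ig-alpha chain that carries a tyrosine-based activation motif in its tail, was at 103 in ILC3 and 17.6 in Th17, 5.83-fold higher in ILC3 (3.40 to 10.7). *Cd79b*, its partner Ig-beta, was at 267 in ILC3 and 44.7 in Th17, 5.98-fold higher in ILC3 (4.26 to 8.60). The ratio of *Cd79b* to *Cd79a* reads was 2.60 in ILC3 (2.10 to 3.23) and 2.53 in Th17 (1.36 to 4.96). The values are close, but the Th17 interval is wide, resting on 38 and 15 reads. *Cd79a* was just past the minimum of 100 and the lower bound of its ratio was under 4-fold. It is the member nearest to the limits of the rule.

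*Cd22*, the inhibitory lectin of B cells that binds sialic acid on neighbouring molecules, went the other way. It was at 28.9 in ILC3 and 75.3 in Th17, from 34 and 64 reads, and 2.60-fold higher in Th17 (1.69 to 4.07). Its interval overlapped with that of no other member, and all 7 other genes had ratios on the ILC3 side. The signalling chains and the inhibitor of the receptor thus lay on opposite sides, although with ILC3 reads counted in groups of 10 the interval of *Cd22* included equal values.

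*Pou2af1* and *Sdc1* differed least. *Pou2af1*, encoding the B cell coactivator OBF-1, was at 134 in ILC3 and 80.0 in Th17, 1.67-fold higher in ILC3 (1.25 to 2.25). *Sdc1* was at 2754 in ILC3 and 2354 in Th17, 1.17-fold higher in ILC3 (1.11 to 1.24). *Sdc1* was therefore an abundant transcript of both libraries, above 90.9% of genes in ILC3 and 88.3% in Th17, with 3238 and 2002 reads.

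**Figure D2:**
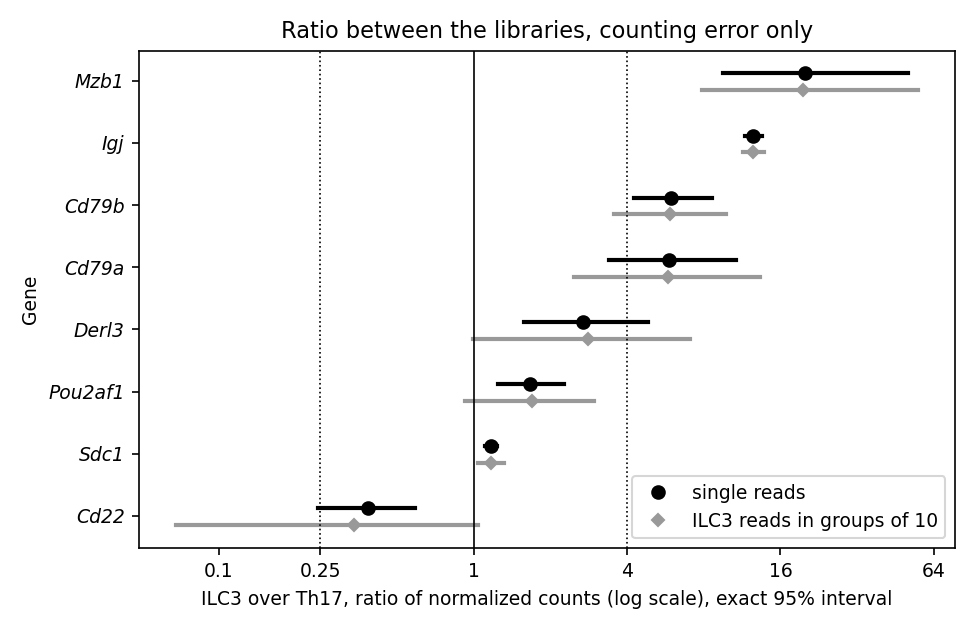
Ratio of normalized counts, ILC3 over Th17 (log axis), for each gene, with exact 95% intervals for counting error from single reads (black) and with ILC3 reads counted in groups of 10 (grey). The solid line marks equal values and the dotted lines 4-fold; *Mzb1* and *Igj* lie beyond 4-fold with both intervals, whereas the grey intervals of *Cd22*, *Pou2af1* and *Derl3* reach across equal values.

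Ordered by ratio from ILC3 to Th17, the genes ran *Mzb1*, *Igj*, *Cd79b*, *Cd79a*, *Derl3*, *Pou2af1*, *Sdc1* and *Cd22*. Neighbours with separate intervals were *Igj* and *Cd79b*, *Pou2af1* and *Sdc1*, and *Sdc1* and *Cd22*. The exact interval excluded equal values for all 8 genes, but it did so for 34.9% of all genes on the ILC3 side and 37.3% on the Th17 side at this depth. With ILC3 reads counted in groups of 10, which allows for repeated copies of a molecule, the intervals of *Cd22* (0.965 to 14.7, Th17 over ILC3), *Pou2af1* (0.921 to 2.97, ILC3 over Th17) and *Derl3* (0.993 to 7.06, ILC3 over Th17) included equal values.

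**Figure D3:**
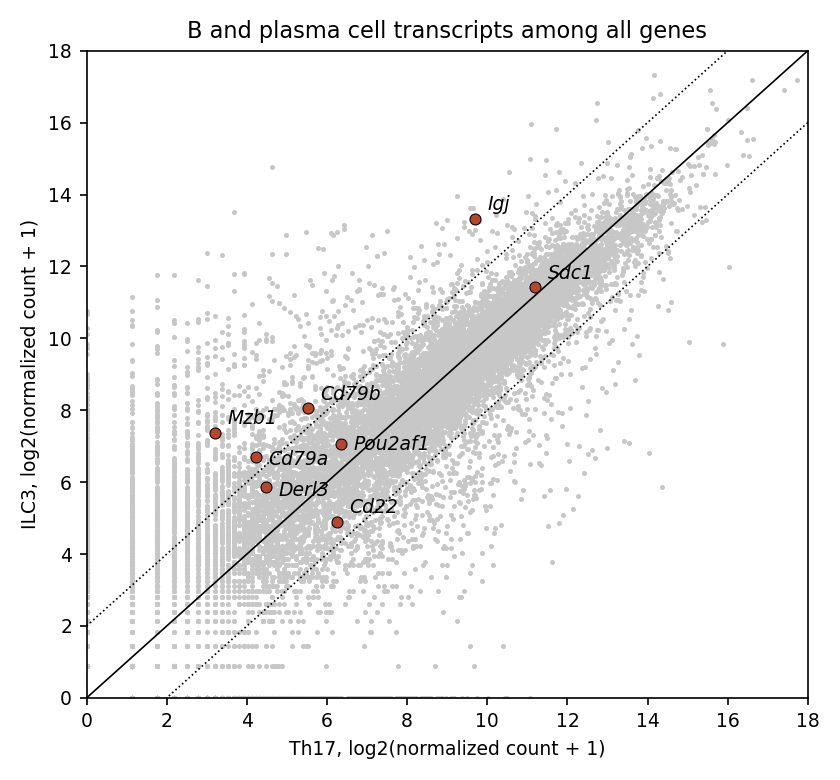
Level of every gene in Th17 (horizontal axis) and ILC3 (vertical axis), each as log2(normalized count + 1), with the 8 genes named. The solid line marks equal values and the dotted lines 4-fold; *Igj*, *Mzb1*, *Cd79a* and *Cd79b* lie above the upper dotted line, and *Sdc1* lies close to the solid line.

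Levels of different genes were compared per kilobase of annotated exon (GENCODE M21, union of exons), an estimate, since no source used here names the annotation the authors counted on. On the scale of normalized counts per kilobase, *Igj* led in ILC3 at 4092, followed by *Sdc1* at 723, *Cd79b* at 187 and *Mzb1* at 136. Below them in ILC3 came *Cd79a* at 70.6 and *Pou2af1* at 52.4, whose intervals overlap, then *Derl3* at 28.6 and *Cd22* at 5.73. In Th17 the order began with *Sdc1* at 618 and *Igj* at 327. The next genes in Th17, *Pou2af1* at 31.4 and *Cd79b* at 31.2, could not be separated. Nor could neighbours be separated among *Cd22* at 14.9, *Cd79a* at 12.1, *Derl3* at 10.6 and *Mzb1* at 6.77. The libraries thus differed in which of these genes led: the J chain in ILC3 and syndecan-1 in Th17.

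The make-up of the reads shows the same. *Igj* took 74.6% of the reads of the 8 genes in ILC3 and 24.0% in Th17, while *Sdc1* took 19.9% and 68.8%. Within a library there were 3.74 *Igj* reads per *Sdc1* read in ILC3 (3.60 to 3.89) and 0.349 in Th17 (0.320 to 0.381). All 8 genes summed to 13807 normalized counts in ILC3 and 3423 in Th17. Without *Igj* the sums were 3508 and 2601.

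**Figure D4:**
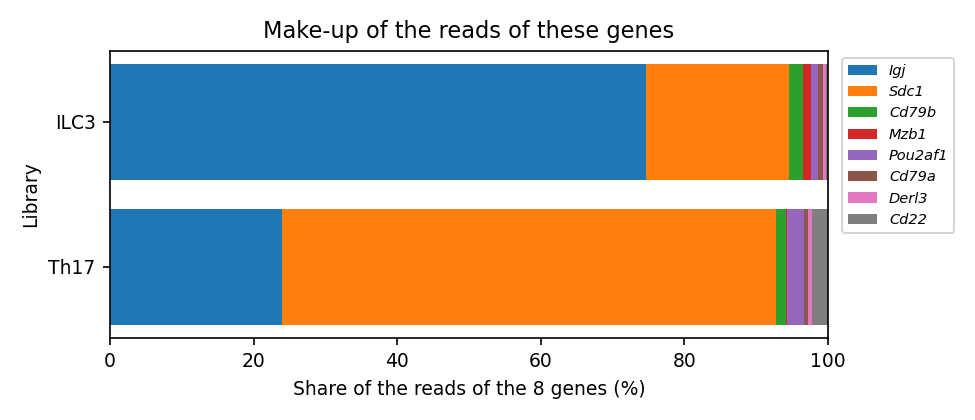
Share of the reads of the 8 genes (horizontal axis, %) taken by each gene in the ILC3 and the Th17 library, as stacked bars. *Igj* fills 74.6% of the ILC3 bar and *Sdc1* 68.8% of the Th17 bar.

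By straight-line distance in log2(normalized count + 1) over the 2 libraries, the genes nearest to *Igj* were *Maff* (9795 in ILC3 and 887 in Th17), *Ncoa7* and *Nr1d1*. Nearest to *Mzb1* were *Ccdc85c*, *Krt19* and *Sox4*, and nearest to *Cd79a* were *Wnt2b*, *Sox7* and *Gcnt3*. A likeness over 2 points says only that the values are close.

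Other genes of the B cell surface and receptor signalling, a list wider than the antigen receptor pathway, lay mostly on the side of ILC3. Of 21 listed, 20 had a row and 15 of these were higher in ILC3, against 45.5% of all genes. Of these 20, 3 had a large difference toward ILC3, against 5.14% of all genes, and 1 toward Th17, against 3.92%. The median log2(Th17/ILC3) of the 20 was -1.15. The 3 were *Lyn* (2527 in ILC3 and 106 in Th17), *Plcg2* (12708 and 756) and *Blnk* (111 and 5.88), a kinase, a phospholipase and an adaptor that act below the receptor. *Lyn* and *Plcg2* are also used by innate cells. *Fcrl1*, a B cell Fc receptor-like gene, was 6.08-fold higher in Th17 (4.07 to 9.37). The most abundant without a large difference, *Cd37*, a tetraspanin gene, and *Blk*, a kinase gene, were 1.48-fold higher in ILC3 and nearly equal (844 and 755).

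Genes that define B cells were sparse in both libraries. *Cr2*, a complement receptor of B cells, was at 62.9 in ILC3 and 25.9 in Th17. The lineage factors *Pax5* and *Ebf1* were at 11.9 and 48.5 in ILC3 and at 1.18 and 4.70 in Th17. *Fcer2a*, an IgE receptor of mature B cells, was at 13.6 in ILC3 and 29.4 in Th17, and *Tnfrsf13c*, the receptor for the survival factor BAFF, at 34.0 and 28.2. As ILC3 over Th17, the ratio was 10.3 for *Ebf1* (3.81 to 39.1), 10.1 for *Pax5* (1.54 to 428) and 2.43 for *Cr2* (1.49 to 4.11). These rest, in ILC3 and Th17, on 57 and 4 reads for *Ebf1*, 14 and 1 for *Pax5*, and 74 and 22 for *Cr2*. Their intervals count each ILC3 read singly, and none with reads in groups of 10 is given for them. The interval of *Tnfrsf13c* (0.709 to 2.09) included equal values. Of the genes named so far in this paragraph, only *Fcer2a* lay toward Th17. Its Th17 over ILC3 ratio was 2.16 (1.11 to 4.33) from 16 ILC3 and 25 Th17 reads. So these defining genes were present but low, and most of them lay toward ILC3. In the B cell surface and lineage factor lists as a whole, 15 of 20 and 5 of 9 genes were higher in ILC3. Low genes of these lists that lay toward Th17 included *Spib* (10.2 in ILC3 and 37.6 in Th17) and *Faim3* (15.3 and 43.5).

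Of 9 B lineage transcription factor genes, 5 were higher in ILC3 with 0 large differences and 4 in Th17 with 1 (median log2 -0.32). That was *Pou2f2*, encoding OCT-2, an octamer-binding partner of OBF-1, at 105 in ILC3 and 487 in Th17 (4.62-fold, 3.77 to 5.69). That call was lost when values were centred on the constitutive families. The other partner, *Pou2f1*, was 1.26-fold higher in Th17 and changed sides under the same centring, whereas *Pou2af1* itself was higher in ILC3. *Bcl6* was 1.46-fold higher in Th17 and *Irf8* 1.25-fold higher in ILC3.

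Genes of plasma cell identity lay on both sides. The list holds 11 genes, of which 10 had a row. Of the 10, 7 were higher in Th17, against 54.5% of all genes, and 3 in ILC3 (median log2 0.75). All 10 had a mean of at least 10, and genes at that mean split 6959 toward Th17 and 6759 toward ILC3. A large difference was called for 1 of the 10 toward Th17, against 3.92% of all genes, and for none toward ILC3, against 5.14%. *Irf4*, needed for plasma cells and also induced by the T cell receptor, was at 748 in ILC3 and 14061 in Th17. *Prdm1* (Blimp-1) and *Xbp1*, the regulators of antibody secretion that T cells also use, had 3629 and 5366 normalized counts in Th17 and 1767 and 3583 in ILC3. *Ell2*, an elongation factor gene, was 3.69-fold higher in Th17 and *Tnfrsf13b*, encoding TACI, 3.82-fold, while *Trp53inp1* was 3.13-fold higher in ILC3. *Ccr10*, a homing receptor gene of IgA plasma cells named here after its values were seen, was at 34.0 in ILC3 and 3.53 in Th17, from 40 and 3 reads (9.64-fold higher in ILC3, 3.07 to 48.7). *Tnfrsf17* had no row, nor did any of 17 immunoglobulin constant gene names, so no antibody class could be read.

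The general secretory machinery did not lie with *Igj* and *Mzb1*. Of 31 genes of folding and endoplasmic reticulum quality control, 23 were higher in Th17 and 8 in ILC3 (median log2 0.46), where all genes split 9274 and 7749. Centred on the constitutive families, the 31 genes split 16 and 15 (median log2 0.02), where all genes split 6723 and 10301. The single large difference, *Sdf2l1*, was 4.28-fold higher in Th17 (3.75 to 4.88) and was no longer called on that centring or with scaling by the total. Toward Th17, 3.92% of all genes had a large difference. The chaperone gene *Calr* was 2.41-fold higher in Th17, and *Hspa5* 1.10-fold, which turned to the ILC3 side when centred. *Hsp90b1*, encoding GRP94, the partner of MZB1, was 1.58-fold higher in Th17, against the 20.0-fold difference of *Mzb1* in the other direction.

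Relatives of the set spread widely. Of 26 listed relatives 23 had a row. A large difference was called for 3 toward ILC3, against 5.14% of all genes, and for 2 toward Th17, against 3.92%. Among syndecans, *Sdc4* was 7.68-fold higher in ILC3 (7.31 to 8.07). *Sdc2* had 194 normalized counts in ILC3 and none in Th17, which makes it at least 55.0-fold higher when 3 reads are taken as the floor. *Sdc1* itself differed by 1.17-fold. Of the derlins, *Derl1* and *Derl2* were 1.29-fold and 2.09-fold higher in Th17, opposite to *Derl3*, but *Derl1* changed sides when centred on the constitutive families. *Ms4a4b*, a T cell relative of *Ms4a1*, was 39.2-fold higher in Th17 (27.3 to 58.5). *Mag*, a lectin of the family of *Cd22* known from myelin, was at 102 in ILC3 and 1.18 in Th17. Of known partners, *Pigr*, the epithelial receptor for J chain polymers, was at 553 in ILC3 and 20.0 in Th17. *Ptpn6*, the phosphatase that CD22 recruits, was 1.88-fold higher in ILC3, and *St6gal1*, which makes the CD22 ligand, 2.71-fold, both opposite to *Cd22*.

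**Figure D5:**
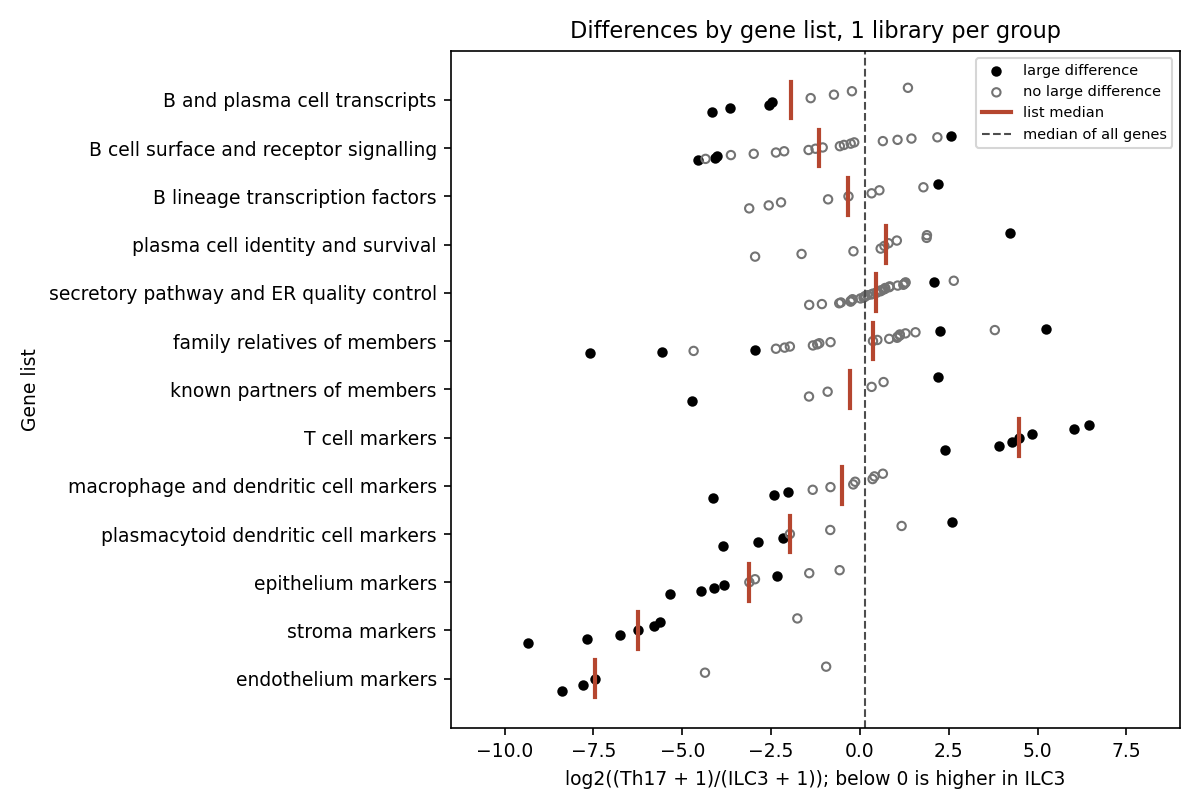
Difference of each gene on log2((Th17 + 1)/(ILC3 + 1)) (horizontal axis, below 0 is higher in ILC3) by gene list, with filled points for large differences, red bars for list medians and a dashed line for the median of all genes. The 8 B and plasma cell transcripts have their median at -1.93, the plasma cell identity and secretory lists have medians right of 0, and the stroma and endothelium lists have the medians furthest to the left.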

How the data were processed

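RNA was sequenced from 1 Th17 and 1 ILC3 library, grouped by sample title. RNA came from TRIzol lysates, with 1 ug per TruSeq library, per the labels' protocols. Per the submitters' processing notes, TopHat2 2.0.6, HTSeq 0.5.4p3 and DESeq 1.12.0 were used with build mm8, and no source used here gives their settings. The signal columns are the authors' deposited normalized counts per library, headed as means. The authors deposited a fold ratio and p-values, raw and adjusted, which have no replicate behind them and are quoted only as theirs. Of 17048 rows, 24 carried calendar dates in place of gene names and were left out (0.297% of ILC3 and 0.251% of Th17 reads).

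Dividing by the lowest value above 0 gave whole reads (within 0.001 reads) for 100% of values in both libraries. No count model could be fitted to 1 library per group. The ratio of recovered reads had an exact (Clopper-Pearson, conditional binomial) 95% interval, which excluded equal values for 5949 genes higher in ILC3 and 6347 higher in Th17. The pseudocount was 1, which understates differences of low genes. The floor for a gene at 0 was 3 reads per library. Intervals and floors cover counting error only. Reads of near-identical genes, such as *Lyz1* and *Lyz2* in the macrophage list, may be split by the counting.

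The 9 genes, the 13 other lists and the rules were chosen with earlier results of these data known. Named were the 9 genes, the partners, defining markers, and per list up to 4 genes with a large difference and 2 without, beside the 3 genes nearest to *Igj*, *Mzb1* and *Cd79a*. A gene that this rule would name is not reported here. For lists of other cell types mainly sums and counts are given. The calculations were tested on simulated counts of 17024 genes with counting error only. In these, 200 genes with a mean of at least 200 normalized counts were changed 8-fold, of which 100% were recovered. Of the set only *Igj* and *Sdc1* reach that mean, so recovery of low genes or of smaller folds was not tested. Alternatives were 4 scalings, other pseudocounts, minimum levels and folds, and interval bounds in place of ratios. Tools were matplotlib 3.10.9, scipy 1.17.1, pandas 2.3.3, numpy 2.4.6 and Python 3.11.15.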

Additional observations from a re-analysis of the deposited data

How the results depend on the processing

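The number of genes of the set with a large difference higher in ILC3 was 4 under every scaling (total, upper quartile, median of ratios, constitutive families), with pseudocounts of 0.1 and 10, with no minimum level and at 2-fold. It was 1 at a minimum of 1000 normalized counts (*Igj*), 2 at 8-fold (*Igj* and *Mzb1*), 3 where the interval bound had to pass 4-fold (without *Cd79a*), and 2 with ILC3 reads in groups of 10 (*Igj* and *Mzb1*). None was higher in Th17 by the rule under any of these. The median log2 ratio ranged from -2.36 (constitutive families) to -1.57 (pseudocount 10), and no gene of the set changed sign. Centring on 157 constitutive genes shifted all log2 ratios by -0.44, scaling by the total by -0.11, and the former changed the split of all genes from 875 higher in ILC3 and 668 in Th17 to 1176 and 473. Over all genes, no minimum gave 2274 and 1923, a minimum of 1000 gave 280 and 219, 2-fold 1673 and 1691, and 8-fold 590 and 380. Where the interval bound had to pass 4-fold the split was 746 and 545, and with ILC3 reads in groups of 10 as well it was 688 and 355. From 4 reads up, a running mean of the number of genes at each read number was highest at 7 reads in ILC3. In Th17 it was highest at 4 reads, the edge of that range. At 0 reads and at 1 read there were 2235 and 174 genes in ILC3, and 714 and 1177 in Th17. Whether repeated copies of molecules lie behind this was not tested. Intervals from single reads do not allow for such copies, so those resting on few ILC3 reads may be too narrow. *Mzb1*, *Cd79a* and *Derl3* rest on 7, 15 and 18 reads in Th17, which limits their ratios. No paired analysis was possible because each group held 1 library.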
